A study of Homo sapiens with 18 samples.

Results

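The arrays labelled SNU449 and those labelled Hep3B were compared in the control state, 3 arrays against 3 out of 18 in the series. The arrays were chosen by their titles alone. The series measured messenger RNA on oligonucleotide arrays in 3 established hepatocellular carcinoma lines, Hep3B, SNU449 and PLC/PRF/5 (labelled PLC). Each line was transfected with a lipid reagent and either an siRNA against the chromatin factor ATAD2 or a non-targeting control siRNA, with 3 arrays of each. The cells of the control arrays had therefore been through transfection, and all were grown in the same medium (RPMI). The labels call the arrays of a group biological replicates. They give no dose, time after transfection or passage, and each label stands for 1 cell line, so a difference between labels is a difference between these 2 cultures and not between classes of tumour. The 6 ATAD2 siRNA arrays of the same labels hold no array of the control comparison and were used as a second set. They are not an independent set, since they share its cell lines, normalization, choice of probe sets and spread estimate per gene.

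Hepatocytes make most of the proteins of blood plasma, clear ammonia through the urea cycle and assemble lipoproteins, under a group of liver transcription factors that sustain each other's genes. Hepatocellular carcinoma lines keep this program to very different degrees. Well-differentiated lines have the look of hepatoblasts or hepatocytes, with albumin, alpha-fetoprotein and E-cadherin, whereas poorly differentiated lines have the look of mesenchymal cells, with vimentin, collagens, ZEB1 and the receptor AXL. Hep3B is known as a line of the first kind that has lost the retinoblastoma gene RB1, and SNU449 as a line of the second kind.

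The line identity genes ran the other way round from what is known of the names. ALB, which encodes albumin, had log2 signals of 2.90, 3.16 and 3.02 on the Hep3B-label arrays and 13.78, 13.75 and 13.75 on the SNU449-label arrays. The groups did not overlap, and the difference was +10.73 ± 0.14 log2 units (standard error), 1695-fold (limma, adjusted p = 8.04e-20 over all genes). ALB was near the top of the scale under the SNU449 label, where its SD on the siRNA arrays was 0 after quantile normalization. Under the Hep3B label it was at background, so the fold may be limited at both ends. AFP, the fetal counterpart of albumin, gave 5.11, 5.20 and 5.13 under the Hep3B label and 9.27, 9.34 and 9.27 under the SNU449 label, a difference of +4.15 ± 0.074. GPC3, a cell-surface heparan sulfate proteoglycan and liver cancer marker, stood at 4.78 ± 0.12 against 12.06 ± 0.016 (mean ± SD, Hep3B label against SNU449 label, n = 3 each here and below). RB1 went the opposite way, with 9.47, 9.44 and 9.51 (Hep3B label) against 4.63, 4.42 and 4.27 (SNU449 label). Its difference was -5.03 ± 0.090 (adjusted p = 7.03e-18), and the SNU449-label mean of 4.44 was at the level of genes that serve below as a yardstick of no expression. A second RB1 probe set was dim under both labels (4.64 against 3.68) and was not called, at -0.96. All 4 ALB probe sets were called higher under the SNU449 label. The names used here are those of the labels, and "SNU449 label" and "Hep3B label" refer to arrays and not to a verified line.

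**Figure D1:**
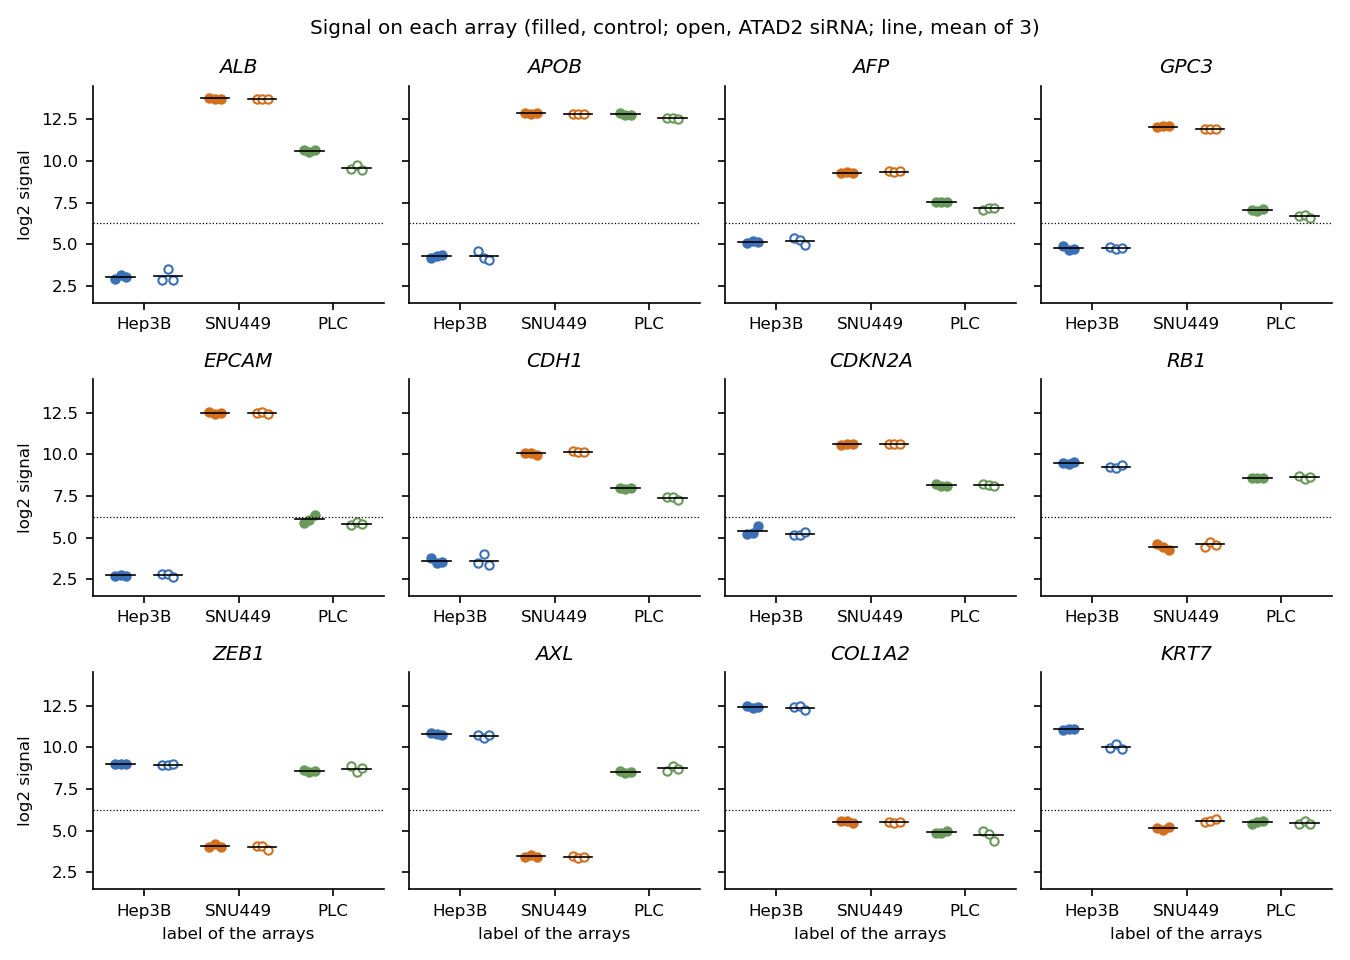
Log2 signal of 12 genes on each of the 18 arrays (filled points, control; open points, ATAD2 siRNA; short lines, mean of 3; dotted line, 6.26, the 95th percentile of olfactory receptor genes). ALB, AFP, GPC3, EPCAM and CDKN2A are high on all 6 arrays labelled SNU449 and below the dotted line on all 6 labelled Hep3B, and RB1, ZEB1, AXL and COL1A2 show the reverse.

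The remaining identity genes lined up with these. EPCAM, an epithelial adhesion molecule, gave 2.71, 2.77 and 2.71 on the Hep3B-label arrays and 12.56, 12.39 and 12.46 on the SNU449-label arrays. CDH1, which encodes E-cadherin, was at 3.60 ± 0.16 against 10.05 ± 0.066. On the other side, AXL, a receptor tyrosine kinase typical of mesenchymal cancer lines, gave 10.89, 10.78 and 10.75 under the Hep3B label and 3.41, 3.55 and 3.42 under the SNU449 label. ZEB1, a repressor of epithelial genes, stood at 8.998 ± 0.011 against 4.08 ± 0.098. VIM, the intermediate filament vimentin, was lower under the SNU449 label by a smaller margin (-1.75 ± 0.10) and remained bright there at 11.56. CDKN2A, whose product p16 inhibits the kinases that inactivate RB, was +5.20 ± 0.092 higher. AXIN1, a scaffold of the Wnt pathway that is mutated in some liver cancer lines, was not called at +0.86. Of the genes next to RB1 on chromosome 13, LPAR6, which lies inside an RB1 intron, was lower (-1.66) by its brighter probe set, while its other probe set was dim and not called. The other 6 neighbours measured were not called, between -0.46 for MED4 and +0.42 for FNDC3A. RB1 stood apart from this neighbourhood by more than 3 log2 units.

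Over all 19775 genes measured, 1828 (9.24%) were called higher and 2070 (10.5%) lower under the SNU449 label, at an adjusted p under 0.05 (limma with Benjamini-Hochberg adjustment) and a difference of at least 1 log2 unit. The median difference of all genes was -0.016. Arrays of 1 group correlated at 0.997 to 0.998 and arrays of different labels at 0.880 to 0.882. The median SD within a group was 0.070 for the Hep3B label and 0.073 for the SNU449 label, so that the 3 arrays of a group did not overlap with those of the other for 74.6% of genes, most of them by small amounts. The median size of a difference was 0.37. The deposited medians of the arrays were 5.39 to 5.42 under the Hep3B label and 5.61 to 5.62 under the SNU449 label, and the values as deposited moved the median difference of all genes to +0.15. One measure of RNA quality differed with the label. The 5′ probe set of ACTB read 0.83 to 1.04 log2 units below its 3′ probe set on Hep3B-label control arrays and 0.42 to 0.51 below on SNU449-label arrays, and that of GAPDH 0.47 to 0.53 against 0.18 to 0.24. It also differed among the Hep3B-label siRNA arrays. The 5′ minus 3′ value of ACTB was -0.56 on replicate 2, against -1.04 and -0.99 on replicates 1 and 3. That of GAPDH was -0.28 on replicate 2, against -0.54 and -0.43. The part of these RNA quality differences in the results was not tested.

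**Figure D2:**
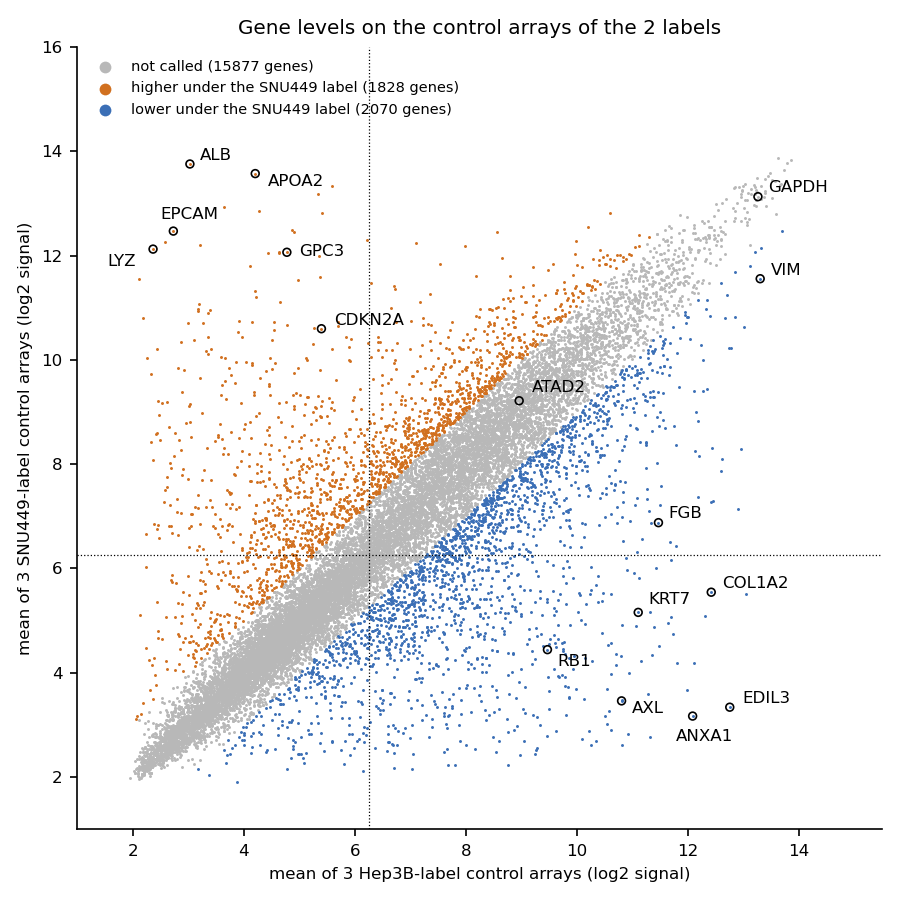
Mean log2 signal of each of the 19775 genes on the 3 Hep3B-label control arrays (x axis) and the 3 SNU449-label control arrays (y axis), with called genes in colour and dotted lines at 6.26. Genes such as ALB, EPCAM and LYZ lie at the upper left, bright under the SNU449 label and at background under the other, and EDIL3, ANXA1, AXL and RB1 at the lower right, whereas GAPDH and ATAD2 lie near the diagonal.

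Genes for olfactory receptors, which epithelial cancer cells are not known to use, served as a yardstick of signal without expression. Of the 102 such genes 3 were themselves called as different between the labels, beside 19.7% of all genes. The 102 genes had medians of 4.51 under the Hep3B label and 4.56 under the SNU449 label, and 95% of their group means were below 6.26. By this measure 8238 genes were above background under both labels, 1196 under the Hep3B label only, 1034 under the SNU449 label only and 9307 under neither. Of the 1828 genes called higher, 995 were below the yardstick under the Hep3B label. Of the 2070 called lower, 1164 were below it under the SNU449 label. The difference of such a gene is measured against background signal and can understate the ratio of messenger RNA. There were 110 genes higher and 123 lower by 5 log2 units or more, which is 32-fold.

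Plasma proteins were mostly on the side of the SNU449 label. Of 32 carriers and protease inhibitors measured, 22 were called higher and 1 lower, with a median of +2.18 log2 units against -0.016 over all genes. TF, the iron carrier transferrin, gave 5.56, 5.47 and 5.74 (Hep3B label) against 13.35, 13.31 and 13.33 (SNU449 label). SERPINA1, which encodes alpha-1-antitrypsin, stood at 4.86 ± 0.19 against 12.50 ± 0.047, and ORM1, an acute phase protein, at 4.11 ± 0.044 against 11.81 ± 0.086. The retinol carrier RBP4 (+7.54), the protease trap A2M (+7.42), the mineral-binding AHSG (+7.39), ITIH2 (+7.42), AMBP (+6.08) and the heme carrier HPX (+1.56) were also called higher. The member called lower was SERPINA3 (-2.59 ± 0.071), which encodes alpha-1-antichymotrypsin. Ceruloplasmin, from CP, did not pass the threshold of size and was bright under both labels (9.05 ± 0.15 against 8.83 ± 0.093). Most of the other uncalled members, among them CRP, HRG and ITIH4, were below the yardstick under both labels.

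Apolipoproteins, the protein coat of lipoprotein particles, were higher under the SNU449 label in 9 of 20 and lower in 1. SCARB1, the receptor that takes up lipid from high density lipoprotein, was bright under both labels and not called (7.97 ± 0.063 against 7.83 ± 0.051). APOB, the backbone of low density lipoprotein, gave 4.18, 4.29 and 4.35 on the Hep3B-label arrays and 12.86, 12.84 and 12.86 on the SNU449-label arrays. APOA2 and APOA1, of high density lipoprotein, differed by +9.37 ± 0.066 and +7.61 ± 0.076. APOH (+7.83), APOC1 (+6.63), APOC3 (+4.87), APOE (+4.18), APOM (+3.54) and MTTP (+4.91), which loads lipid onto APOB, completed the 9 of 20 called higher. APOL2 was the member called lower (-1.47), and APOL1 was not called (-0.69).

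Clotting factors were split. Of 25 measured, 13 were called higher and 3 lower, with a median of +1.295. Prothrombin (F2, +4.13), F5 (+5.07), F7 (+4.52), F10 (+4.11), the fibrinolysis inhibitor CPB2 (+6.50), heparin cofactor II from SERPIND1 (+6.44) and kininogen from KNG1 (+5.71) were higher under the SNU449 label. The fibrinogen chains did not move together. FGB gave 11.42, 11.46 and 11.53 under the Hep3B label and 6.75, 6.96 and 6.92 under the SNU449 label, a difference of -4.59 ± 0.063, and its second probe set differed by -4.69. FGG was lower by less (-1.81 ± 0.10). FGA was called higher (+1.295 ± 0.21), and on the ATAD2 siRNA arrays its difference was +0.44 and was not called. F3, the tissue factor that starts clotting outside the vessel, was lower (-1.14). Complement genes had 12 of 25 higher and 2 lower. C3, the central component, was at 8.66 ± 0.036 against 11.96 ± 0.033, and C4BPB (+5.38), MASP1 (+4.06), C4BPA (+3.99) and CFI (+3.94) had larger differences. The members called lower were CD55 (-2.07) and CD59 (-1.30), which are not secreted but protect the cell surface from complement.

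Of 28 liver transcription factors listed 22 were measured, and the others were not analysed here. Of the 22, 15 were called higher and 2 lower, with a median of +2.28. PROX1, needed for the growth of the liver bud, gave 3.09, 3.03 and 3.18 (Hep3B label) against 10.46, 10.38 and 10.29 (SNU449 label). CEBPA, a driver of hepatocyte differentiation, gave 4.79, 5.15 and 4.98 on the Hep3B-label arrays and 11.49, 11.60 and 11.51 on the SNU449-label arrays. The pioneer factors FOXA3 (+4.69), FOXA1 (+3.87) and FOXA2 (+1.32), HNF4G (+4.48), ONECUT2 (+3.55), ONECUT1 (+2.57), the nuclear receptor partner RXRA (+2.38) and NR0B2 (+3.07) were also higher. FOXA2 was well above background under both labels (7.93 ± 0.048 against 9.26 ± 0.0026). CEBPB, a relative of CEBPA that responds to inflammation, ran the opposite way at 11.49 ± 0.054 against 8.73 ± 0.052, and SOX9, a factor of bile duct cells and progenitors, was lower (-1.19). The SOX9 difference was -0.86 on the ATAD2 siRNA arrays and was not called there.

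The stretches of DNA before the starts of 4 genes called higher under the SNU449 label are shown because CEBPA and ZEB1, which differed between the labels, have known recognition motifs. The C/EBP motif TTNNGNAA is marked in capitals before ALB, HAL (histidine ammonia-lyase) and AFP, and the E-box CACCTG or its complement, the form bound by ZEB1, before CRB3, an apical polarity gene (6.42 ± 0.10 against 7.72 ± 0.058). Each run holds the 250 bases before a RefSeq start in GRCh38.p14, on the strand of the gene. They lie at chr4:73404037-73404286 (ALB, plus strand), chr12:95996345-95996594 (HAL, minus strand), chr4:73435971-73436220 (AFP, plus strand) and chr19:6464021-6464270 (CRB3, plus strand).
ALB: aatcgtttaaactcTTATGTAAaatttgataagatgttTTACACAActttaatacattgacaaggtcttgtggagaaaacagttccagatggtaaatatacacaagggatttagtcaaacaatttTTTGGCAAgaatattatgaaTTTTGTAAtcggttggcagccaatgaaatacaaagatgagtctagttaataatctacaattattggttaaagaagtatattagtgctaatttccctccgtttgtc
HAL: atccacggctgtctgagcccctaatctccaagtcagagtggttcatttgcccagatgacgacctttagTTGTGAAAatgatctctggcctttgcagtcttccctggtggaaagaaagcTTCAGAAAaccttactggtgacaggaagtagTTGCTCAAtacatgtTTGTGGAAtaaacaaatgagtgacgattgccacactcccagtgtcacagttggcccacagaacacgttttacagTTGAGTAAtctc
AFP: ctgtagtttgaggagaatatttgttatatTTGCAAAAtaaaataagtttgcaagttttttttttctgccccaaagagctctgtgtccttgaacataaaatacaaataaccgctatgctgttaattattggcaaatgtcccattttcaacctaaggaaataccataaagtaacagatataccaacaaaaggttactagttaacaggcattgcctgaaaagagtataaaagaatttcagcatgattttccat
CRB3: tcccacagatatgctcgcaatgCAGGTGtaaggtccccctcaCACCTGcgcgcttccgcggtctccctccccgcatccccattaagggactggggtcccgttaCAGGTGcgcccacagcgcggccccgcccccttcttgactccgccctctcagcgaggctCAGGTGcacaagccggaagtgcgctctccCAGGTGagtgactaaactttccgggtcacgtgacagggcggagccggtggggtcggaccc

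The window before ALB held 4 matches to the C/EBP letters, that before HAL 5 and that before AFP 1, and the window before CRB3 held 5 matches to the E-box. A match is a run of letters and not a shown site. The C/EBP letters do not tell CEBPA from its relative CEBPB, which was called lower. Among the 15384 genes with such a window, 33.3% held TTNNGNAA on either strand. The share was 33.3% of the 1435 genes called higher with a window and 33.6% of the 1657 called lower, close to the share of all genes. It was more common among plasma carriers and protease inhibitors whatever their call, with 13 of 18 called higher, 1 of 1 called lower and 6 of 8 not called. CACCTG was found before 21.2% of all genes, 25.9% of those called higher, 20.3% of those called lower and 20.8% of those not called. In the list of epithelial genes it was found before 5 of 11 called higher, 4 of 5 called lower and 6 of 10 not called. In the list of mesenchymal factors and markers it was found before 0 of 1 called higher, 1 of 6 called lower and 2 of 11 not called.

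Metabolic genes of the hepatocyte were higher in part. Of 24 genes for the urea cycle and amino acid breakdown, 10 were called higher and 1 lower. HAL, which starts the breakdown of histidine, gave 3.24, 3.13 and 3.22 under the Hep3B label and 11.11, 11.12 and 11.02 under the SNU449 label. HGD, of tyrosine breakdown (+5.74), the urea cycle genes ARG1 (+5.47), ASS1 (+4.01) and ASL (+2.05), and GLUL, which makes glutamine from ammonia (+3.89), were higher. CPS1, the entry enzyme of the urea cycle, was above background under both labels and was not called (8.28 ± 0.046 against 8.85 ± 0.090), and OTC was below the yardstick under both (3.13 ± 0.11 against 3.33 ± 0.050). KYNU, of the kynurenine pathway of tryptophan, was lower (-3.26 ± 0.069). In gluconeogenesis and glycogen metabolism 5 of 21 were higher, led by the coactivator PPARGC1A (+2.03) and PC (+1.82). The defining enzymes PCK1 (2.78 ± 0.12 against 2.82 ± 0.093) and G6PC1 (4.77 ± 0.20 against 4.45 ± 0.16) were below the yardstick under both labels.

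Drug-handling genes did not move as a block. Of 37 cytochrome P450 genes and their reductase, 5 were called higher and 4 lower, with a median of +0.06. These shares, 13.5% and 10.8%, were near the 9.24% and 10.5% of all genes. CYP24A1, which degrades active vitamin D, gave 9.16, 9.32 and 9.26 (Hep3B label) against 2.46, 2.37 and 2.51 (SNU449 label). CYP1B1 (-5.70 ± 0.14), CYP3A5 (-2.82) and CYP2U1 (-1.90) were also lower. POR, the reductase that feeds electrons to P450 enzymes, was the member with the largest increase (+1.96 ± 0.066), ahead of CYP1A1 (+1.88). The adult liver enzymes CYP2C8, CYP2E1, CYP2B6 and CYP7A1 were below the yardstick under both labels. Conjugating enzymes had 10 of 28 higher and 2 lower. UGT2B4, which glucuronidates bile acids, gave 2.05, 2.08 and 2.20 on the Hep3B-label arrays and 11.61, 11.50 and 11.54 on the SNU449-label arrays, and UGT2A3 (+6.09), SULT1A1 (+4.07) and SULT2A1 (+3.56) followed. Among bile acid and hepatocyte transport genes 4 of 23 were higher, led by SLC22A9 (+4.43), and 5 lower, led by the drug exporter ABCB1 (10.39 ± 0.087 against 6.84 ± 0.060). The bile acid importer SLC10A1 was below the yardstick under both labels (5.50 ± 0.045 against 5.37 ± 0.12).

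Fetal liver and liver cancer genes were mostly on the SNU449 side, with 11 of 21 called higher and 1 lower. LIN28B, which blocks maturation of let-7 microRNAs, gave 2.88, 2.998 and 3.10 under the Hep3B label and 10.70, 10.68 and 10.76 under the SNU449 label. PEG3 (+4.29), DLK1 (+3.51), MDK (+3.07), PLAGL1 (+2.39) and MEST (+2.09) were higher along with AFP and GPC3. GOLM1, a Golgi protein raised in the blood of liver cancer patients, ran the other way at 9.19 ± 0.019 against 4.41 ± 0.087. Of the mRNA-binding oncofetal proteins, IGF2BP1 was higher (+1.59), and IGF2BP2 and IGF2BP3 were bright under both labels and not called (+0.40 and +0.53).

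Epithelial genes were higher under the SNU449 label more often than lower, with 17 of 40 called higher, 7 lower and a median of +0.46. PROM1, a marker of apical membrane protrusions also known as CD133, gave 3.28, 3.11 and 3.15 (Hep3B label) against 10.91, 10.94 and 10.95 (SNU449 label). The transport protein MAL2 (+7.55), the epithelial splicing factor ESRP1 (+4.13), GRHL1 (+2.81), the tight junction genes MARVELD3 (+2.75) and CGN (+2.55), the surface protease ST14 (+2.54) and the desmosome plaque gene DSP (+2.30) were higher. The genes of this list called lower were the desmosomal cadherins DSC2 (-3.41) and DSG2 (-1.87), PARD6B (-3.09), CLDN2 (-2.92), AP1M2 (-1.76), ELF3 (-1.42) and PKP3 (-1.07). Arrays of the Hep3B label thus had signals of 7.53 to 10.94 for these 7 epithelial genes.

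Keratins, the intermediate filaments of epithelia, were called higher in 4 of 16 and lower in 4. KRT7, a keratin of bile ducts and many glands, gave 11.06, 11.13 and 11.13 on the Hep3B-label arrays and 5.19, 5.03 and 5.25 on the SNU449-label arrays. KRT19, the other duct keratin, gave 3.59, 3.29 and 3.21 under the Hep3B label and 10.37, 10.48 and 10.45 under the SNU449 label. The duct pair thus stood in opposite directions, at -5.95 ± 0.090 and +7.07 ± 0.12. KRT8 (+3.74) and KRT18 (+1.63), the pair found in hepatocytes, and KRT23 (+6.47) were higher under the SNU449 label, and KRT80 (-4.27), KRT222 (-2.34) and KRT15 (-1.04) lower. KRT15 was not called without Hep3B control replicate 2 (-0.97). KRT7 had 3 further probe sets, which differed by 0.33 or less and were not called. Among 18 markers of bile ducts and progenitors 5 were higher and 4 lower. LGR5, a receptor of stem cells and of hepatocytes near the central vein, was higher (2.43 ± 0.14 against 8.61 ± 0.028), and CD44, a hyaluronan receptor, lower (9.66 ± 0.048 against 4.65 ± 0.067).

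**Figure D3:**
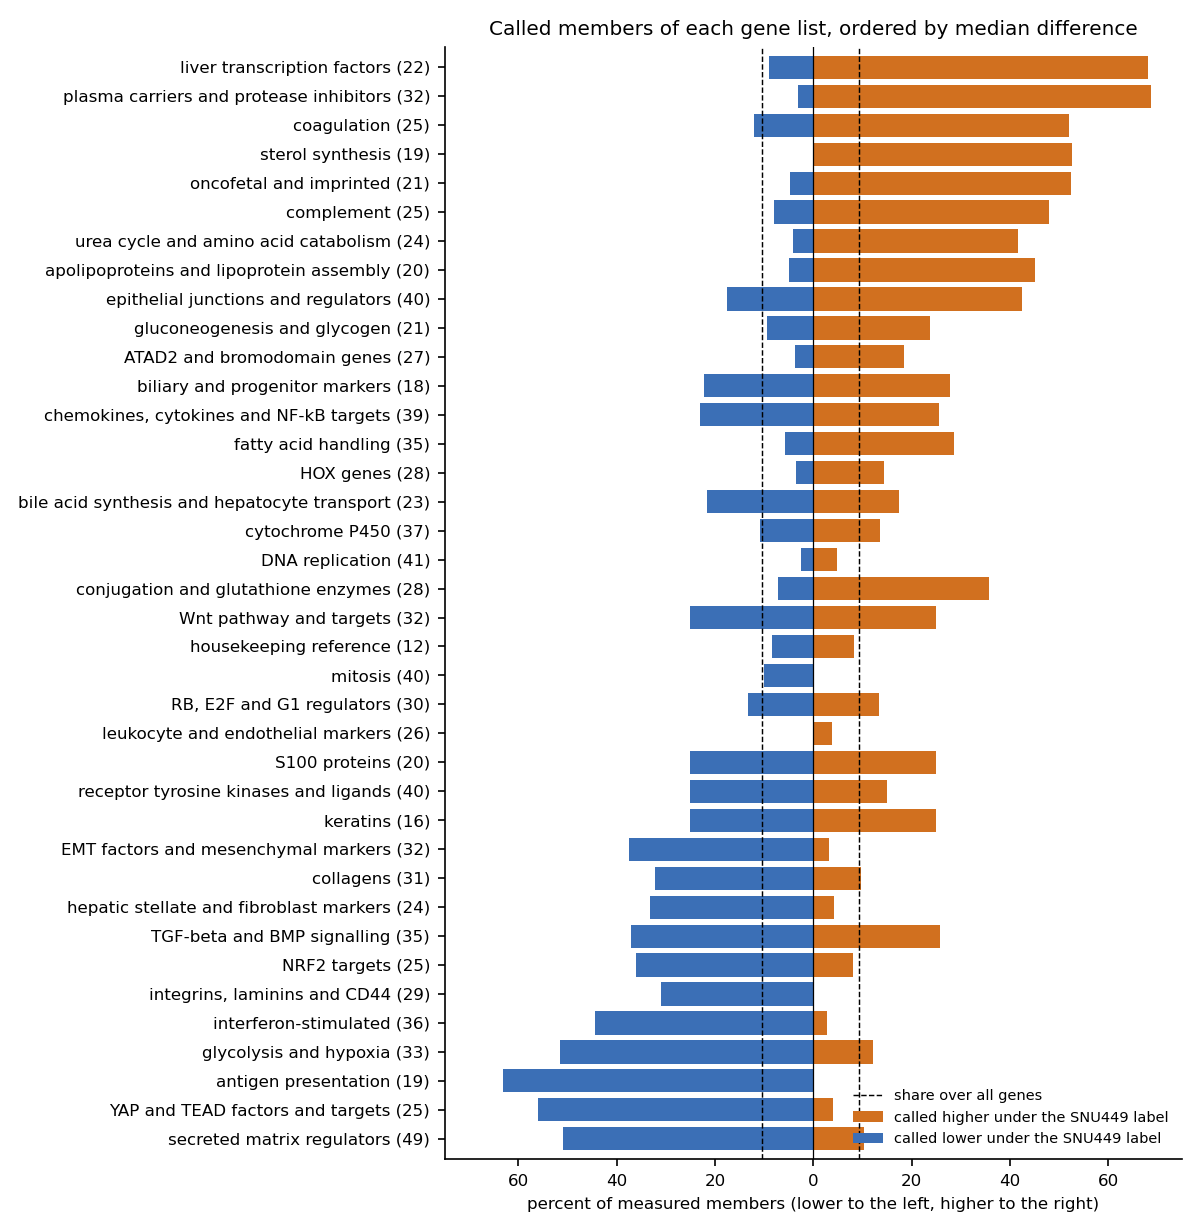
Share of measured members (in parentheses) of 38 gene lists called higher (right) or lower (left) under the SNU449 label, ordered by the median difference; dashed lines give the shares over all genes, 9.24% and 10.5%. Plasma protein, liver transcription factor and sterol lists extend to the right, and matrix, YAP and TEAD, antigen presentation, glycolysis and interferon lists to the left.

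Of 49 secreted matrix regulators, 25 were called lower and 5 higher, with a median of -1.21. EDIL3, a secreted ligand of integrins, had the largest negative difference of the genes ranked for naming (-9.42 ± 0.099, limma, adjusted p = 7.92e-21). It gave 12.74, 12.74 and 12.79 (Hep3B label) against 3.30, 3.40 and 3.32 (SNU449 label). VCAN, the proteoglycan versican, gave 11.80, 11.80 and 11.81 on the Hep3B-label arrays and 4.34, 4.09 and 4.10 on the SNU449-label arrays. IGFBP7 (-7.54), FSTL1 (-6.98), IGFBP5 (-6.55), SPARC (-6.36), the plasminogen activator PLAU (-6.34), the collagen cross-linker LOXL2 (-6.17), SERPINE2 (-5.89) and THBS2 (-5.35) followed. The members called higher were 3 with arrays centred on their medians and 2 with the mean of all probe sets. They included MFAP2 (+3.32), BGN (+2.73), LOXL4 (+1.98) and fibronectin from FN1 (10.93 ± 0.025 against 12.04 ± 0.056), which hepatocytes also secrete. TGFBI was among the brightest of the list under both labels and was not called (11.76 ± 0.015 against 12.10 ± 0.047).

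Collagens were called lower in 10 of 31 and higher in 3. COL1A2, a chain of fibrillar collagen, gave 12.46, 12.38 and 12.43 under the Hep3B label and 5.60, 5.56 and 5.47 under the SNU449 label. COL1A1, its partner chain, was not called and stood at 7.54 ± 0.11 against 7.42 ± 0.017 by its brightest probe set, whereas the mean of its probe sets was lower (-2.53) and was called. COL6A3 (-7.94), COL4A5 (-7.65), COL21A1 (-5.58) and COL11A1 (-4.39) were lower. The basement membrane chain COL4A1 was bright under both labels (11.18 ± 0.031 against 10.85 ± 0.039) and not called, in contrast to COL4A5. COL2A1, the main collagen of cartilage, ran the opposite way at 4.27 ± 0.080 against 8.99 ± 0.019, with COL27A1 (+3.08) and COL9A3 (+3.01). Integrins, laminins and CD44 had 9 of 29 lower and 0 higher (limma). At an unadjusted p under 0.05, with no minimum size, 5 lay above 0 and 19 below, and with the mean of all probe sets 1 was called higher. ITGA4 (-4.12) and ITGA3 (-3.56) followed CD44.

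Of 32 mesenchymal factors and markers, 12 were called lower and 1 higher. The actin-binding TAGLN gave 11.47, 11.33 and 11.37 (Hep3B label) against 4.85, 4.90 and 4.87 (SNU449 label). MYL9, a myosin light chain (-5.20), and the transcription factors ZEB1 (-4.92), FOXC2 (-3.53), TWIST1 (-3.20) and TWIST2 (-1.46) were lower. Not all mesenchymal genes took part. CDH2, which encodes N-cadherin, was bright under both labels (8.89 ± 0.052 against 8.59 ± 0.063), ZEB2, SNAI1 and SNAI2 were below the yardstick under both, and CALD1 was the member called higher, at +1.03 ± 0.052. CALD1 had another probe set called the opposite way, stood at +0.53 and was not called on the ATAD2 siRNA arrays, and was not called without SNU449 control replicate 1 (+0.996). Markers of hepatic stellate cells and fibroblasts, the other cells that could carry collagen, were lower in 8 of 24 and higher in 1. Their median signal was 6.12 to 6.29 on Hep3B-label control arrays and 5.39 to 5.65 on SNU449-label arrays. The defining markers LRAT, DES, PDGFRB and LUM were below the yardstick under both labels. RGS5, a pericyte gene, was called lower (9.70 ± 0.013 against 5.50 ± 0.29), but 1 other of its probe sets was called higher, although 3 of its 6 probe sets were lower.

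Markers of leukocytes and endothelium were near background. The list's median signal was 4.82 to 4.94 on Hep3B-label and 5.05 to 5.07 on SNU449-label control arrays, and 1 of 26 was called. PTPRC (3.66 ± 0.084 against 3.27 ± 0.17), CDH5 (2.95 ± 0.051 against 2.81 ± 0.10) and VWF (5.17 ± 0.091 against 4.99 ± 0.096) were below the yardstick. The exception was LYZ, which encodes lysozyme and gave 2.26, 2.29 and 2.54 on the Hep3B-label arrays and 12.21, 12.08 and 12.07 on the SNU449-label arrays. LYZ was also bright on PLC control arrays, at 11.05.

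Of 40 growth factor receptors and ligands, 10 were called lower and 6 higher, with a median of -0.15. These shares, 25% and 15%, stand beside 10.5% and 9.24% of all genes. AXL (-7.35), the ligands HBEGF (-4.68), FGF2 (-4.51), FGF5 (-3.20) and NRG1 (-2.75), and FGFR1 (-2.82) were lower. FGFR3 (4.55 ± 0.12 against 10.73 ± 0.011), ERBB3 (+3.56) and FGFR4 (+2.16), the main fibroblast growth factor receptor of hepatocytes, were higher. The receptors MET (11.50 ± 0.012 against 11.22 ± 0.021) and EGFR (9.43 ± 0.015 against 8.92 ± 0.056) were bright under both labels and were not called.

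The Hippo pathway effectors YAP and TAZ bind TEAD factors and switch on genes of spreading cells. Of 25 genes in that list 14 were called lower and 1 higher, with a median of -1.20. CCN1, a secreted target, gave 12.56, 12.58 and 12.69 under the Hep3B label and 8.11, 8.09 and 8.10 under the SNU449 label. WWTR1, which encodes TAZ, was lower (-3.84 ± 0.068), with the targets CRIM1 (-3.37), ANKRD1 (-2.59), AMOTL2 (-2.28) and CCN2 (-1.89). YAP1 itself was not called (10.03 ± 0.039 against 9.79 ± 0.10). The upstream regulators NF2 (-3.23) and LATS2 (-1.20), which restrain YAP, were lower too. Genes of transforming growth factor beta and bone morphogenetic protein signalling split into 13 lower and 9 higher of 35. The ligand TGFB2 (-4.69), the receptors TGFBR3 (-3.59) and TGFBR2 (-2.19), the transducer SMAD3 (-2.50) and the antagonist GREM1 (-6.73) were lower. BMP2 (+3.80), the activin subunits INHBE (+7.02) and INHBB (+3.52), and the bone morphogenetic protein targets ID1 (+2.83) and ID2 (+2.56) were higher. ID4, a relative of ID1, was among the 20 largest increases (2.43 ± 0.096 against 10.21 ± 0.075).

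Wnt pathway genes were called higher in 8 of 32 and lower in 8, or 5 with the mean of all probe sets. SFRP1, a secreted inhibitor, gave 11.17, 11.18 and 11.13 (Hep3B label) against 4.32, 4.15 and 4.18 (SNU449 label). WNT5B (-6.29) and the receptors FZD2 (-5.44) and FZD7 (-4.05) were lower, whereas FZD5 (+4.34) and LGR5 (+6.17) were higher. AXIN2, a target that reports beta-catenin activity in many tissues, was lower (6.93 ± 0.14 against 5.12 ± 0.34), while the target RNF43 was higher (5.14 ± 0.13 against 7.03 ± 0.14). CTNNB1, which encodes beta-catenin, was not called (11.17 ± 0.031 against 11.09 ± 0.032).

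Of 36 interferon-stimulated genes 16 were called lower and 1 higher, and 16 were below the yardstick under both labels. GBP1, an interferon-induced GTPase, gave 9.49, 9.43 and 9.59 on the Hep3B-label arrays and 3.28, 3.30 and 3.35 on the SNU449-label arrays. IFIT5 (-5.33), IFIT1 (-4.44), IFITM1 (-3.34), the sensor RIGI (-2.05) and the factors IRF7 (-2.68) and IRF9 (-2.12) followed. ISG15 was the member called higher (+1.10 ± 0.070). It stood at +0.89 and was not called on the ATAD2 siRNA arrays, and leaving out Hep3B control replicate 1 or 3, or SNU449 control replicate 1 or 2, brought the number called higher to 2, the other being MX1 (+0.999 with all arrays). Antigen presentation genes were called lower in 12 of 19 and higher in 0 (limma), with 14 below 0 and 2 above at an unadjusted p under 0.05. ERAP2, which trims peptides, gave 8.28, 8.37 and 8.46 under the Hep3B label and 3.10, 3.09 and 3.11 under the SNU449 label. The immunoproteasome subunit PSMB9 (-3.52), the peptide loader TAPBP (-2.22), the transporter TAP1 (-1.77) and the class I chains HLA-C (-2.24) and HLA-B (-1.44) were lower, and B2M, their common light chain, was not called (12.51 ± 0.067 against 12.21 ± 0.044). Class I chains are near-identical copies, so cross-hybridisation between them cannot be set aside. Cytokines and NF-kB targets went both ways, with 10 of 39 higher and 9 lower. IL6 was lower (8.54 ± 0.074 against 3.66 ± 0.038), with IL18 (-4.01) and LIF (-3.43). The chemokines CCL20 (4.20 ± 0.073 against 11.32 ± 0.057), CXCL5 (+6.77) and CXCL12 (+3.44) were higher.

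Glucose and oxygen genes were lower in 17 of 33 and higher in 4. PFKP, the platelet form of phosphofructokinase, gave 11.37, 11.34 and 11.33 (Hep3B label) against 4.27, 4.27 and 4.50 (SNU449 label). The hexokinases changed places. HK1 was at 8.72 ± 0.070 against 5.05 ± 0.068 and HK2 at 4.23 ± 0.10 against 11.21 ± 0.044. The hypoxia target ADM (-5.36), PFKFB3 (-3.33), BNIP3 (-2.07), PDK1 (-1.71) and PGK1 (-1.47) were lower. Of the hypoxia factors themselves HIF1A was lower (12.85 ± 0.083 against 11.68 ± 0.043) and EPAS1, which encodes HIF-2 alpha, was higher (9.57 ± 0.038 against 11.83 ± 0.0026). GAPDH was not called (-0.13).

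In sterol synthesis 10 of 19 were called higher and 0 lower (limma), with 17 above 0 and 0 below at an unadjusted p under 0.05 and a median of +1.11. TM7SF2 (6.73 ± 0.047 against 10.003 ± 0.078), SC5D (+2.41), MSMO1 (+2.36), HMGCS1 (+2.24) and SQLE (+2.02) led. SREBF2, the factor that controls these genes, was not called (7.37 ± 0.081 against 7.59 ± 0.059). In fatty acid handling 10 of 35 were called higher and 2 lower, with a median of +0.12. FABP5 (3.36 ± 0.093 against 10.11 ± 0.039) and FABP1 (+4.46), which carry fatty acids in the cell, ACSL1 (+3.94), PNPLA3 (+3.80) and FASN (+1.52) were higher, and HADHA (-1.15) and FADS2 (-1.36) lower. SCD was bright under both labels (12.10 ± 0.0061 against 12.43 ± 0.042), whereas its relative SCD5 was among the 20 largest decreases (10.21 ± 0.033 against 2.87 ± 0.025).

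Targets of the oxidative stress factor NRF2 were called lower in 9 of 25 and higher in 2. AKR1C3, a reductase of steroids and carbonyls, gave 12.02, 11.94 and 12.01 on the Hep3B-label arrays and 3.56, 3.67 and 3.78 on the SNU449-label arrays. AKR1C1 (-5.76), AKR1C2 (-5.17) and NQO1 (-5.13) followed. The AKR1C genes are near-identical copies whose probe sets may not tell them apart. TXN (-0.40), GCLC (+0.13) and ME1 (+0.09) were not called. GCLM was not called by its brightest probe set (-0.48) but was called lower by the mean of its probe sets (-1.17). SLC7A11, the cystine importer, was higher (+2.78 ± 0.068), and so was KEAP1 (+2.04), which keeps NRF2 low.

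Genes of DNA replication and mitosis were called at or below the rate of all genes. RB1, which holds many of them in check, was called lower, and its part in their levels was not tested. Of 41 DNA replication genes 2 were called higher (MCM2, +1.55, and UNG, +1.15) and 1 lower (POLE2, -1.09), and the median was +0.05. Of 40 mitosis genes 4 were lower, led by KIF23 (-1.70), and 0 higher (limma), with 17 below 0 and 14 above at an unadjusted p under 0.05. PLK1 (0.997) lay at the edge of the threshold and was called higher without Hep3B control replicate 1 (+1.06) or SNU449 control replicate 1 (+1.001). The 4 called lower were 2 with the mean of all probe sets. These shares were at or under the background of 9.24% and 10.5%. MKI67, the proliferation marker Ki-67, stood at 8.51 ± 0.17 against 8.84 ± 0.14. Among 30 regulators of the G1 phase 4 were higher and 4 lower. CDKN2A gave 5.22, 5.29 and 5.69 under the Hep3B label and 10.56, 10.61 and 10.61 under the SNU449 label. CDKN2B, its neighbour on chromosome 9, was +4.32 ± 0.11, and SKP2, which marks the inhibitor p27 for degradation, +2.96 ± 0.064. CDK6 (-1.44), CDKN1A (-1.36) and the RB relative RBL1 (-1.24) were lower. E2F1 (-0.31), CCNE1 (+0.48) and CCND1 (-0.50) were not called.

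Further families held few or opposed calls, beside 9.24% of all genes called higher and 10.5% called lower. S100 calcium-binding proteins had 5 of 20 higher and 5 lower (3 lower with the values as deposited), with S100A14 (+5.89) and S100P (+3.09) higher and S100A10 (-4.13) and S100A11 (-2.86) lower. HOX genes, which record position along the body axis, were below the yardstick under both labels in 23 of 28. HOXD1 (5.23 ± 0.18 against 7.96 ± 0.028) and HOXC6 (5.23 ± 0.18 against 7.22 ± 0.16) were higher, and HOXB7 (7.25 ± 0.15 against 5.11 ± 0.11) lower. Of 27 bromodomain genes 5 were higher (3 with arrays centred on their medians, 2 with the mean of all probe sets), led by TRIM24 (+2.19) and BRPF3 (+1.91), and 1 lower, KAT2B (-1.18). ATAD2, the target of the study's siRNA, gave 8.94, 8.93 and 9.02 (Hep3B label) against 9.32, 9.18 and 9.14 (SNU449 label) by its brightest probe set. It was not called (limma, +0.25 ± 0.16, adjusted p = 0.169). Its other probe sets differed by +0.63, +0.68 and -0.46, each at an adjusted p under 0.05 (limma). They thus did not share a sign, and none reached the threshold of size. Among 12 reference genes PGK1 was called lower. POLR2A was called higher (+1.06) by its brightest probe set, with another probe set called lower, and ACTB (-0.30), PPIA (+0.02) and EEF1A1 (-0.02) differed by 0.30 or less.

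The largest differences lay partly outside these lists. Among the 20 largest increases, MAN1A1, a mannosidase of the Golgi, gave 2.56, 2.62 and 2.53 on the Hep3B-label arrays and 12.34, 12.20 and 12.23 on the SNU449-label arrays. NTS, the precursor of neurotensin, gave 3.55, 3.63 and 3.74 under the Hep3B label and 12.99, 12.87 and 12.92 under the SNU449 label. MBNL3, a splicing regulator, gave 3.11, 3.35 and 3.16 (Hep3B label) against 12.26, 12.18 and 12.18 (SNU449 label). HS3ST3B1, which sulfates heparan chains (+8.60), the agmatine hydrolase family member AGMAT (+7.79) and GAS2 (+7.78), which binds actin and microtubules, completed them. MBNL3 was at 3.06 on PLC control arrays, whereas NTS was at 12.26. Among the 20 largest decreases, ANXA1, a membrane-binding protein that dampens inflammation, gave 12.09, 12.08 and 12.09 on the Hep3B-label arrays and 3.13, 3.26 and 3.12 on the SNU449-label arrays. SRGN, the core protein of a granule proteoglycan, gave 11.28, 11.34 and 11.36 under the Hep3B label and 2.71, 2.84 and 2.72 under the SNU449 label. GNG11, a G protein subunit, gave 10.86, 10.76 and 10.82 (Hep3B label) against 2.49, 2.77 and 2.57 (SNU449 label). ABI3BP (-8.11), the potassium channel KCNJ16 (-7.73), MGARP (-7.70), the transcription factor ETS1 (-7.65), the focal adhesion adaptor TGFB1I1 (-7.54), QPCT (-7.37), CD109 (-7.35), AHNAK2 (-7.35) and RNF182 (-7.32) were the others not named so far. These 40 genes were chosen by size on the control arrays, so it follows from the choice that their groups did not overlap there. Over all genes the share without overlap was 74.6%. Every one of the 40 was called in the same direction on the ATAD2 siRNA arrays, as were 88.5% of all genes called higher and 90.5% of all called lower.

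Genes with several probe sets gave a check inside the arrays. Of the 3898 called genes 2472 had more than 1 probe set. In 1416 of these another probe set was called the same way, and in 33 another was called the opposite way. Among the genes named here, the probe set with the second-highest mean had the opposite sign for A2M, ARG1, AXIN2, CFDP1, FADS2, FASN, HNF4G, KIF23, KRT19, KRT7, LOXL4, LPAR6 and POLR2A. That probe set was not called in any of these. In POLR2A a further probe set was called lower. The values as deposited, without further normalization, took F3, HADHA, KAT2B, KRT15, PAK6, PKP3, POLE2, RBL1, SLC39A10 and SPIN4 under the threshold of 1 log2 unit, with values between -0.99 and -0.76. Centring each array on its median did so for CALD1, FN1, ISG15, PKP3, POLR2A and STX6, and quantile normalization over the 6 control arrays alone for F3, ISG15, PAK6, PKP3 and STX6. With each gene given as the average over its probe sets, APOL2, AXIN2, BRPF3, CALD1, CFDP1, FADS2, FASN, FGA, FGFR4, FN1, FOXA2, IGF2BP1, IL6R, KIF23, LOXL4, LPAR6, PAK6, PDK1, PKP3, RBL1, STX6, TAPBP and TWIST2 fell short of the threshold. Examples are FOXA2 at +0.79, FASN at +0.74, FGA at +0.54, RBL1 at -0.41 and AXIN2 at -0.42. COL1A1 and GCLM were called lower by that mean.

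The differences were not spread evenly over the chromosomes. For the 10451 genes above the yardstick under at least 1 label, the median difference was 0.017. The median was -0.56 for the 144 such genes on chromosome 18, -0.55 for 326 on chromosome X, -0.51 for 427 on chromosome 10 and -0.49 for 301 on chromosome 20. It was +0.43 for 478 genes on chromosome 7 and +0.29 for 441 on chromosome 9. The same medians on the ATAD2 siRNA arrays were -0.54, -0.56, -0.50, -0.50, +0.41 and +0.24. On chromosome 13, which carries RB1, the median of 183 genes was 0.050.

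**Figure D4:**
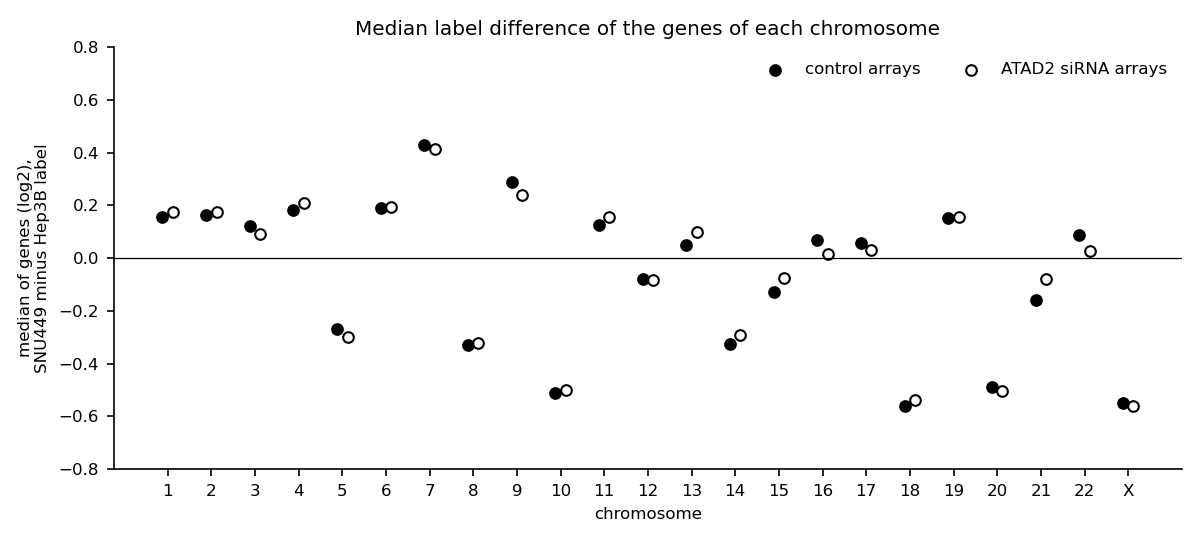
Median difference between the SNU449 and Hep3B labels, in log2 units, over the genes of each chromosome that were above the yardstick under either label, on control arrays (filled) and ATAD2 siRNA arrays (open). Chromosomes 18, X, 10 and 20 lie near -0.5 on both sets of arrays and chromosome 7 near +0.4.

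The PLC control arrays gave another point of reference. Their mean lay between the means of the labels for 2372 of the 3898 called genes. It was nearer to the SNU449 label for 47.3% of the genes called higher and 53.2% of those called lower. PLC shared the hepatocyte side for APOB (12.80) and TF (11.23), but was below the yardstick for UGT2B4 (5.24), AHSG (5.30) and EPCAM (6.09). It shared the other side for ANXA1 (10.10), CYP24A1 (8.71), ZEB1 (8.60) and RB1 (8.57), but not for EDIL3 (2.86) or COL6A3 (4.36). PLC control list medians were 4.85 to 4.88 for secreted matrix regulators, against 5.06 to 5.16 (SNU449 label) and 7.28 to 7.43 (Hep3B label). Those of mesenchymal factors and markers were 5.15 to 5.31, against 4.998 to 5.13 and 6.29 to 6.45 in the same order. Those of plasma carriers and protease inhibitors lay between, at 6.38 to 6.51 against 8.59 to 8.67 and 4.89 to 4.97.

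On the ATAD2 siRNA arrays of the same labels, 1833 genes (9.27%) were called higher and 2119 (10.7%) lower under the SNU449 label. Of the genes called higher on control arrays 1618 (88.5%) were called higher again, which is 88.3% of those called on the siRNA arrays. Of those called lower 1873 (90.5%) were called lower again (88.4% of the siRNA calls). No gene was called in opposite directions, and 9 of the 3898 had differences of opposite sign. The differences correlated across the 19775 genes at r = 0.984, a description over genes, which are not independent replicates. ALB differed by +10.67, RB1 by -4.66, EPCAM by +9.72 and AXL by -7.28 there.

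**Figure D5:**
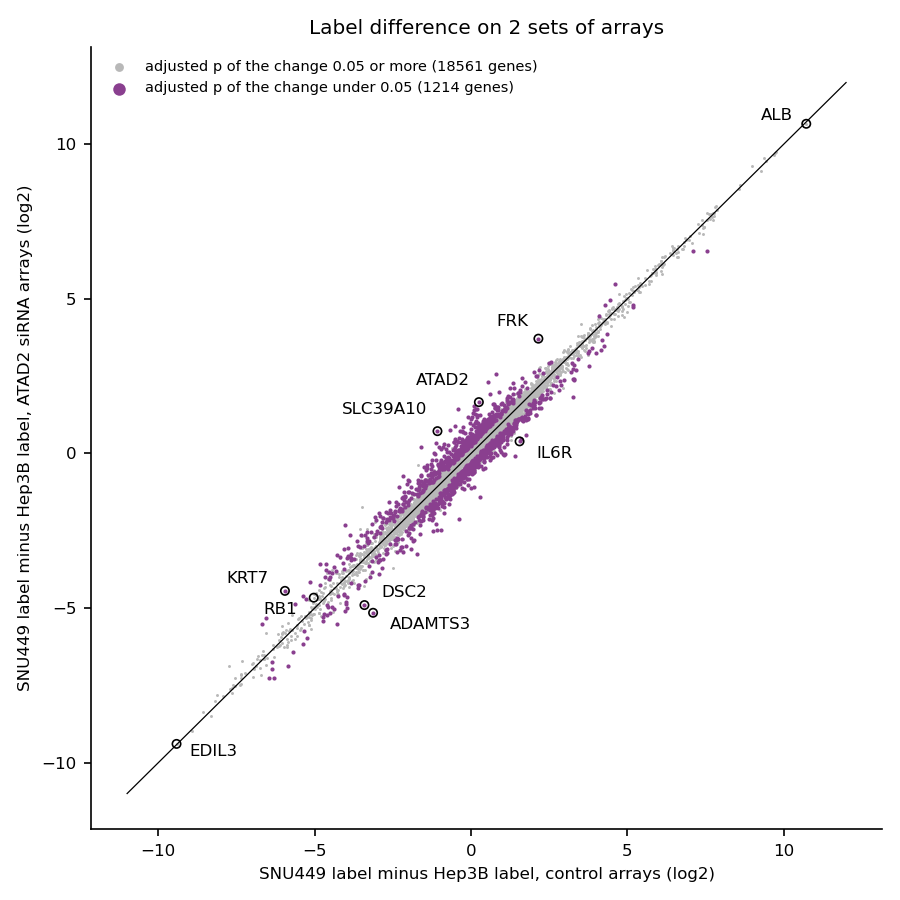
Difference between the SNU449 and Hep3B labels for each of the 19775 genes on control arrays (x axis) and on ATAD2 siRNA arrays (y axis), in log2 units, with the line of equality. ALB, EDIL3 and RB1 lie close to the line, and the coloured points are the 1214 genes whose difference changed with the siRNA, such as SLC39A10, FRK, KRT7, DSC2 and ADAMTS3.

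The difference between labels changed with the siRNA for 1214 genes (6.14%; limma interaction, adjusted p under 0.05), 580 upward and 634 downward, and 505 of these were called on the control arrays. Without Hep3B control replicate 2 the downward count was 405, and without Hep3B ATAD2 siRNA replicate 2 it was 678. ATAD2 itself showed the depth of the knockdown by its brightest probe set. Among the siRNA arrays it gave 5.15, 4.70 and 5.65 under the Hep3B label and 6.62, 6.90 and 6.96 under the SNU449 label. The label difference of that probe set was +1.66 there against +0.25 on control arrays. SLC39A10, a zinc importer, had the smallest p among genes called on control arrays. Its signals were 9.85, 9.88 and 9.92 under the Hep3B label and 8.89, 8.77 and 8.78 under the SNU449 label in the control state, and 7.89, 7.78 and 7.86 (Hep3B label) against 8.48, 8.57 and 8.64 (SNU449 label) with ATAD2 siRNA, so that the difference went from -1.07 to +0.72 (interaction +1.79, adjusted p = 1.63e-08). The kinase FRK went from +2.16 to +3.71, and KRT7 from -5.95 to -4.44. ADAMTS3, a procollagen protease, went from -3.13 to -5.15, and DSC2 from -3.41 to -4.90. The interleukin 6 receptor gene IL6R went from +1.56 to +0.39, STX6 from +1.04 to -0.01, PAK6 from -1.03 to +0.23 and SPIN4 from -1.11 to +0.35. In these 9 genes the Hep3B-label arrays moved more than the SNU449-label arrays. CFDP1 was the exception among the 10 smallest p-values of called genes, with Hep3B-label means of 10.22 and 10.17 and a difference that went from -1.29 to -0.51.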

How the data were processed

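Total RNA from 18 cultures was hybridised to arrays with biotin label. The authors deposited log2 values per probe set, and the submitters' processing notes name limma without a version. The array type, background correction and normalization behind these log2 values were not given in any source used here. The deposited medians differed between groups, so the values were quantile normalized over all 18 arrays. Of 54675 probe sets, 41097 had 1 gene symbol in the platform annotation, 1801 several and 11777 none. The probe set with the highest mean was kept for each of 19775 genes.

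Groups came from the titles. A linear model was fitted with limma 3.58.1 (R 4.3.3; lmFit, then eBayes) to the 6 group means of all arrays, with a shared spread per gene (12 residual and 4.01 prior degrees of freedom). A gene was called at a Benjamini-Hochberg adjusted p under 0.05 over all genes and a difference of at least 1 log2 unit. The fit was tested on simulated data. The labels name the arrays of a group biological replicates but not separate passages or days, so the p-values measure the spread between these arrays, which may be partly technical. Replicate numbers did not pair the arrays: deviations of same-numbered arrays of the labels correlated at -0.10, -0.02 and -0.07.

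Named genes were the 20 largest differences in each direction, list members by size of difference together with uncalled members, the identity genes and RB1 neighbours, and the 10 smallest interaction p-values among called genes. Some genes were set aside from naming and were left out of these rankings. The comparison and the gene lists were chosen with earlier results of these data known. Results of 2 further lists are not reported here. Promoter windows come from RefSeq (GRCh38.p14). Alternatives changed the normalization, dim-gene filter, probe set, arrays in the fit, prior, replicate block, thresholds and left-out arrays, and those for the interaction and the left-out siRNA arrays were chosen after seeing the data.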

Additional observations from a re-analysis of the deposited data

Results flagged for a closer look

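The difference between the SNU449 and Hep3B labels was not the same on control and ATAD2 siRNA arrays for 1214 of 19775 genes (limma interaction, adjusted p under 0.05, 3 arrays in each of the 4 groups). Each value here is the label difference on the siRNA arrays minus that on the control arrays, in log2 units, and all 56 genes listed passed that threshold.

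The genes with the smallest p among those called on control arrays were SLC39A10 (+1.79), FRK (+1.56), KRT7 (+1.51), SPIN4 (+1.46), PAK6 (+1.26) and CFDP1 (+0.78) upward and ADAMTS3 (-2.02), DSC2 (-1.50), IL6R (-1.16) and STX6 (-1.05) downward. ATAD2 itself stood at +1.41. Among secreted blood proteins and their cell-surface regulators the downward genes were FGG (-0.98), FGB (-0.31), CD55 (-0.91), CD59 (-0.34), C3 (-0.87), C4BPA (-0.74) and APOE (-0.53). Metabolic enzymes and sterol genes on that side were HMGCS1 (-0.76), SC5D (-0.61), SQLE (-0.44), PC (-0.72), ASL (-0.38), KYNU (-0.37) and CYP1B1 (-0.73). The others moving down were TGFBR2 (-0.81), GRHL1 (-0.76), TGFBR3 (-0.68), SPARC (-0.63), SKP2 (-0.60), CCL20 (-0.55), CALD1 (-0.50), EPAS1 (-0.49), FZD5 (-0.48), FOXA1 (-0.45), FNDC3A (-0.40), THBS2 (-0.39) and IGF2BP3 (-0.26). Upward genes of the G1 phase and DNA replication lists were CCND1 (+0.99), CDK6 (+0.90), RBL1 (+0.84), CCNE1 (+0.45), MCM2 (+0.30) and UNG (+0.57), whereas SKP2 of the same G1 list was among those moving down. The others moving up were ME1 (+0.38), SMAD3 (+0.41), EGFR (+0.42), FABP1 (+0.49), PFKFB3 (+0.51), FGFR4 (+0.55), IFIT1 (+0.57), WWTR1 (+0.58), COL11A1 (+0.72), ADM (+0.75), KRT80 (+1.0004) and IGFBP5 (+1.23). By the brightest ATAD2 probe set, the Hep3B-label and SNU449-label cultures kept different amounts of signal under siRNA, and the part of this in the changes was not tested.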

How the results depend on the processing

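No called gene was called in the opposite direction under any normalization, filter, choice of arrays, prior or left-out array that was run, and 9 were with the second-highest probe set. Among the genes named, a called difference changed sign only with other probe sets. The probe set with the second-highest mean gave A2M -0.27, ARG1 -0.38, AXIN2 +0.0082, CFDP1 +0.20, FADS2 +0.36, FASN -0.035, HNF4G -0.15, KIF23 +0.10, KRT19 -0.25, KRT7 +0.17, LOXL4 -0.57, LPAR6 +0.19 and POLR2A -0.52, and the mean of all probe sets gave POLR2A -0.22. The cause was not tested.

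On control arrays the counts higher and lower were 996 and 1083 with the second-highest probe set, which exists for fewer genes, 679 and 814 at a minimum of 2 log2 units, and 6458 and 6669 with no minimum. On ATAD2 siRNA arrays they were 989 and 1103, 648 and 815, and 6364 and 6739. Of the 3898 calls, 3467 were kept with the values as deposited, 3495 with quantile normalization over the 6 arrays, 3435 with arrays centred on their medians and 2984 in a test against a difference of 1 log2 unit. Leaving out 1 array gave 1821 to 1854 higher and 2062 to 2084 lower on control arrays, and 1834 to 1850 and 2107 to 2136 on siRNA arrays. With the replicate block 1828 were higher and 2070 lower, and it changed no call on control arrays.

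The upward and downward counts of genes whose label difference changed with the siRNA were less stable. They were 195 and 152 with the second-highest probe set and 292 and 271 at an adjusted p of 0.01. Higher counts came with an intensity trend and a robust prior (740 and 845) and without the dimmest 50% of genes (771 and 894). The downward count was 420 with arrays centred on their medians, where the cause was not tested. Leaving out 1 array gave 424 to 617 upward and 405 to 678 downward, the lowest without Hep3B control replicate 2. With the replicate block they were 550 and 573. Quantile normalization over the 6 control arrays, or a fit on them alone, gives no value for this change. The number of arrays, 3 in a group, and the background signal of dim probes limit the precision.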

Other observations

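The ATAD2 siRNA arrays hold no array of the control comparison but share its normalization, probe sets and spread estimate. The same lists were counted on them. Plasma carriers and protease inhibitors were called higher in 22 of 32 and lower in 1 there, and liver transcription factors in 15 and 1 of 22. YAP and TEAD factors and targets were called lower in 14 of 25 and antigen presentation genes in 12 of 19. Interferon-stimulated genes were called lower in 18 of 36, against 16 on control arrays. Sterol synthesis genes were called higher in 8 of 19, against 10, and glycolysis and hypoxia genes lower in 14 of 33, against 17. Chemokines, cytokines and NF-kB targets were called higher in 6 of 39, against 10, and DNA replication genes were called higher in 5 of 41, against 2. These differences between counts were not tested.

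Other motifs showed no large tilt between the sides. In the 250 bases before the start, TATAAA was found on either strand in 10.9% of all 15384 genes with a window, 10.9% of those called higher and 10.02% of those called lower. TGTTTAC, the core bound by FOXA factors, was found in 3.25%, 3.83% and 3.74%. Matches describe letters only.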
